A study of Homo sapiens with 6 samples.

Results

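The genes SNAI1, SNAI2, ZEB1, ZEB2, TWIST1 and TWIST2 encode the core transcription factors of the epithelial-mesenchymal transition (EMT), and chromatin accessibility was measured around them in HLF, a long-established line of human liver tumour cells. ATAC-seq, in which the Tn5 transposase cuts and tags open DNA, was run on 3 libraries treated with the solvent DMSO and 3 treated with 5 μM SNDX-5613 (revumenib), a small molecule that blocks the binding of menin to the histone methyltransferase MLL1. The labels give 24 h of exposure whereas the methods of the study describe days, so the duration is uncertain, and nothing in the labels states that the 3 libraries of a group came from separate cultures, although the methods describe each replicate as its own dish. The measurement is the list of called peaks in each library. Peak regions of the 6 lists that overlapped by at least 1 bp were joined into 166021 sites genome-wide, and 107 of these lay in the body of a member gene or within 50 kb of it (24 for SNAI1, 2 for SNAI2, 9 for ZEB1, 22 for ZEB2, 17 for TWIST1 and 33 for TWIST2). The rule used position only.

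EMT is the programme by which epithelial cells loosen their junctions and become migratory. SNAI1 and SNAI2 are zinc-finger repressors that silence CDH1, the gene of the junction protein E-cadherin. ZEB1 and ZEB2 are zinc-finger and homeodomain repressors, and the miR-200 family holds them down in epithelial cells. TWIST1 and TWIST2 belong to the basic helix-loop-helix class, and all 6 factors bind E-boxes. In liver cancer these factors are known as markers of poorly differentiated, invasive tumour cells.

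The reference sequence (hg38, plus strand, 5′ to 3′) at the summits is shown for the promoter sites of ZEB1 and TWIST1 and for the sites whose groups stood apart in the results that follow, so that the text can refer back to it. Bases of untranslated regions were left out, which shortened the pieces at RNF114 and TWIST1. The pieces lie at chr20:49936253-49936335 (the RNF114 promoter in the SNAI1 locus), chr20:50030080-50030229 (3′ flank of SNAI1), chr20:50000886-50001035 (intergenic site downstream of SNAI1), chr10:31318972-31319121 (ZEB1 promoter), chr7:19117637-19117694 (directly upstream of the TWIST1 start), chr7:19011295-19011444 (distal TWIST1 site) and chr7:19100613-19100762 (TWIST1 site inside its long transcript). Capitals mark matches on either strand to a set of short motifs. The CCAAT box is the motif of the trimeric factor NF-Y. The motif CATTCC is bound by the TEAD factors of the Hippo pathway. The motif TGANTCA belongs to the Jun and Fos dimers known together as AP-1. The motif AGATAA belongs to the zinc-finger factors of the GATA family. The motif GGGCGG belongs to the SP and KLF factors common at promoters. The E-box CANNTG is the motif shared by the members themselves.
RNF114 promoter: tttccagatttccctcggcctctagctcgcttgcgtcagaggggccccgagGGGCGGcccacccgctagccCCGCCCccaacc
SNAI1 3′ flank: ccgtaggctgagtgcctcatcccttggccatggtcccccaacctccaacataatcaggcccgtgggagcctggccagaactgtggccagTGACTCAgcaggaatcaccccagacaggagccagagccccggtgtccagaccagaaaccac
SNAI1 intergenic: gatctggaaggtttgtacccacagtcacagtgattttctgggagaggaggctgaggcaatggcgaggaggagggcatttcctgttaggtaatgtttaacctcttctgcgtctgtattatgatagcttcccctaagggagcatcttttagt
ZEB1 promoter: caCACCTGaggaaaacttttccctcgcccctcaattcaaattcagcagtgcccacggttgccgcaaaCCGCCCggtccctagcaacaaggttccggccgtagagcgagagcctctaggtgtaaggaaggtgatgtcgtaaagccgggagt
TWIST1 upstream: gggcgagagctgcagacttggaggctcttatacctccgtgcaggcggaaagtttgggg
TWIST1 distal: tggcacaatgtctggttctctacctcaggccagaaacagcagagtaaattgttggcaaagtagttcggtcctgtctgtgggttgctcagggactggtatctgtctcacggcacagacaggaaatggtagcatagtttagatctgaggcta
TWIST1 intronic: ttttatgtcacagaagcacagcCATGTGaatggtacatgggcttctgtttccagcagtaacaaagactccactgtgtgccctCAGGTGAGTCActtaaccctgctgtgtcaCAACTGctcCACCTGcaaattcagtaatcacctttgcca

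The ZEB1 promoter piece held an E-box and an SP match, and the RNF114 piece 2 SP matches. In the TWIST1 intronic piece an AP-1 match overlapped 1 of 4 E-boxes. In windows of 201 bp centred on the strongest summit, an NF-Y match was present at 3 of the 21 member sites with a peak in every library. A TEAD match was present at 2, an AP-1 match at 6, a GATA match at 2, an SP match at 7 and an E-box at 11. The TWIST1 promoter was among the sites with an NF-Y match, which lay outside the shortened piece printed for it. The shares over all 33405 sites with a peak in every library were 26.7% for NF-Y, 15.2% for TEAD, 17.8% for AP-1, 4.70% for GATA, 35.0% for SP and 58.3% for the E-box. The median GC content of these windows was 60.2% at the member sites and 58.2% over all such sites. A match is a description of the reference letters only.

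The libraries differed in depth. The peak lists hold no read totals, but every summit's fold enrichment and −log10 p could be solved for a whole-number pileup, the reads or fragments stacked at the summit. The most frequent background pileup was 0.997 to 1.447 in the DMSO libraries, 1.26 and 1.51 in SNDX-5613 replicates 1 and 2, and 0.211 in SNDX-5613 replicate 3, which also had 40568 regions against 88026 to 113675 in the others. Because −log10 p grows with depth, each library's values were ranked, and the rank of a site was given as its percentile among the 33405 sites that had a peak in every library. Sites were called higher or lower in SNDX-5613 when the 3 percentiles of one group lay wholly beyond the 3 of the other. The exact two-sided permutation test of 3 against 3 libraries cannot give a p below 0.1, and it measures the spread between these libraries only. In bulk libraries, a site open in fewer cells and a site less open in every cell cannot be told apart. Promoter peaks were present in all 6 libraries at the mesenchymal markers VIM, CDH2 and FN1 and at the epithelial markers CDH1 and EPCAM. No promoter peak was called at the epithelial marker KRT19. Among 6 hepatocyte markers, ALB, APOA1 and HNF4A had no promoter peak in any library, TTR and AFP had one in 5 libraries and SERPINA1 in 2. The leukocyte markers PTPRC and CD3E had no promoter peak.

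Of the 107 member sites, 21 had a peak in all 6 libraries (19.6%, against 20.1% of all sites), 39 in the 5 deeper libraries (36.4%, against 36.1%) and 37 in a single library (34.6%, against 36.2%). Peaks recurred at the member sites about as often as at all sites. In the 6-library set 1 member site was higher in SNDX-5613 (4.76% of 21, with 8.54% of all sites called higher) and 3 were lower (14.3%, with 8.08% called lower). The median difference in percentile, SNDX-5613 minus DMSO, was -1.15 points over the 21 member sites and -0.0933 over all 33405. The difference was above 0 at 10 member sites and below 0 at 11. All 4 sites that stood apart belonged to the loci of SNAI1 and TWIST1.

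**Figure D1:**
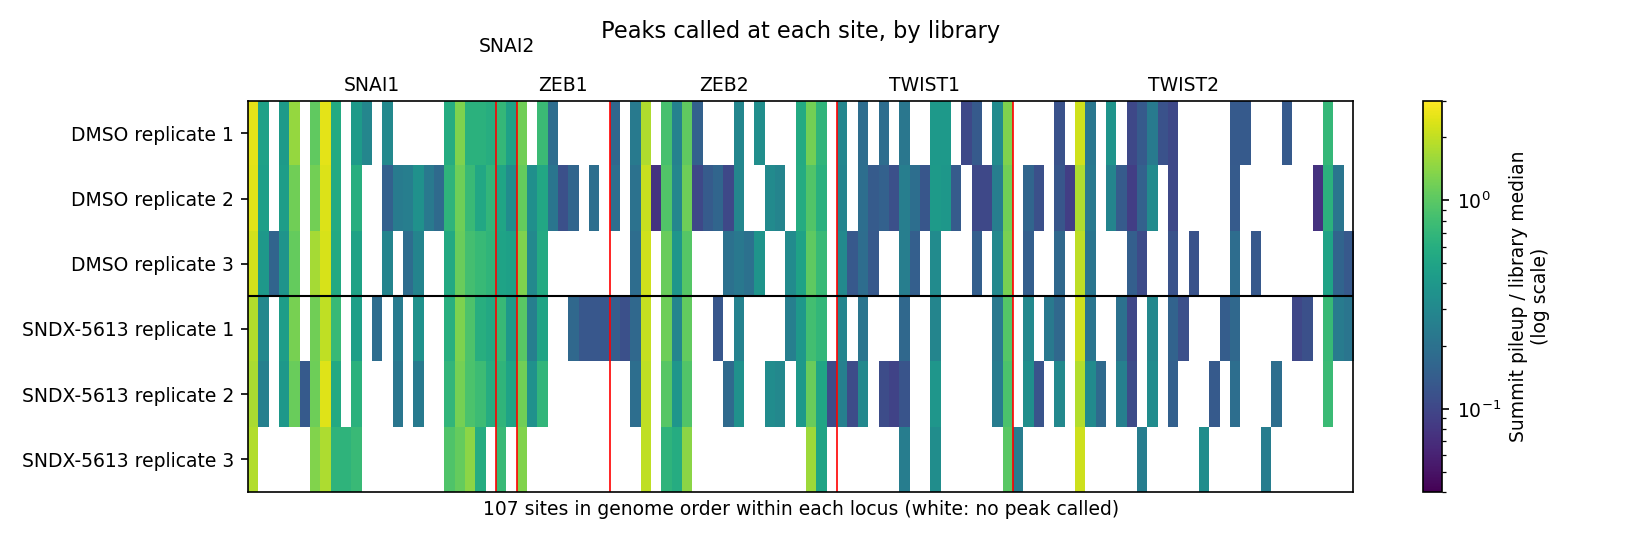
Summit pileup divided by the library's median pileup (colour, log scale) at the 107 sites (columns, in genome order within each locus) in the 6 libraries (rows), with white where no peak was called. The shallow SNDX-5613 replicate 3 has peaks at 26 of the sites, and the TWIST1 block has more white in the SNDX-5613 rows than in the DMSO rows.

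SNAI1 lies on the plus strand at chr20:49982980-49988886 and has a single annotated transcript. Its promoter site, with the summit 144 bp upstream of the start in an intergenic stretch, was the most accessible promoter of the family. The summit pileups were 148, 189 and 174 in DMSO and 140, 177 and 21 in SNDX-5613. Its percentiles were 83.2, 79.9 and 77.1 in DMSO and 71.4, 81.0 and 64.1 in SNDX-5613. SNDX-5613 replicate 2 lay inside the DMSO range and the other two below it, so the groups overlapped. The means were 80.1 ± 3.05 (SD, n = 3) and 72.2 ± 8.45 (SD, n = 3), a difference of -7.91 points (exact permutation p = 0.3). Without the shallow library the difference was -2.19. Percentiles were then taken on the wider set of sites that this opens, so the values are on different scales. The strongest summit stayed between 144 and 157 bp upstream of the start in every library.

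The 22 flanking sites of SNAI1 held the other differences of this locus. The strongest of them is the promoter of RNF114, a ubiquitin ligase gene whose start lies upstream of SNAI1, with its summit 46652 bp upstream of the SNAI1 start. Its pileups were 148, 195 and 168 in DMSO and 128, 127 and 22 in SNDX-5613. Its percentiles were 86.3, 85.6 and 81.0 in DMSO against 73.6, 71.5 and 71.7 in SNDX-5613. All 3 SNDX-5613 libraries were below all 3 DMSO libraries (difference -12.0 points, exact permutation p = 0.1). Without the shallow library, on the wider set of sites that this opens, the means were 91.3 in DMSO and 84.7 in SNDX-5613 (difference -6.58). The groups stayed apart, as dropping a library from separated groups almost ensures. The site is in the SNAI1 locus by its position only.

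In the 3′ flank, 47175 bp downstream of the SNAI1 start, an intergenic site with an AP-1 match in the sequence printed for it was the member site called higher. Its pileups were 37, 59 and 62 in DMSO and 63, 64 and 17 in SNDX-5613. The percentiles were 7.77, 14.2 and 18.0 in DMSO and 23.0, 19.4 and 47.9 in SNDX-5613. The groups did not overlap (difference 16.8 points, exact permutation p = 0.1), although SNDX-5613 replicate 2 was 1.42 points above the highest DMSO library and the shallow library was far above both deeper ones. With percentiles taken within each library's own list the groups overlapped (difference 8.16 points, exact permutation p = 0.4). The site was not in the compared set with equal list lengths or at 50% cover. A different pattern was seen at an intergenic site 17981 bp downstream of the start, where peaks were called in all 3 DMSO libraries, with pileups of 18, 12 and 21, and in none of the SNDX-5613 libraries. The missing calls include the 2 deeper SNDX-5613 libraries.

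SNAI2 had the sparsest locus. It is a short gene on the minus strand at chr8:48917598-48921740, and 2 sites were found in it and its flanks, both present in all 5 deeper libraries. The promoter site had its summit 252 bp upstream of the nearest start, in an exon of another annotated gene. Pileups there were 42, 40 and 37 in DMSO and 51, 49 and 9 in SNDX-5613, and relative to the median pileup of each library they were 0.712, 0.506 and 0.493 in DMSO and 0.729, 0.671 and 0.750 in SNDX-5613. The percentiles were 41.6, 26.6 and 25.0 in DMSO and 40.2, 34.7 and 46.0 in SNDX-5613. DMSO replicate 1 lay between the SNDX-5613 libraries, which made the groups overlap (means 31.1 ± 9.16 and 40.3 ± 5.63, SD, n = 3; difference 9.22 points, exact permutation p = 0.3). The called region covered 230 to 323 bp in the DMSO libraries and 636 and 695 bp in the deeper SNDX-5613 libraries. In the shallow library it covered 291 bp. The other site, 4040 bp upstream of the nearest start, also overlapped between the groups.

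ZEB1 is a long gene on the plus strand (chr10:31318495-31529814), and its peaks were concentrated at its 5′ end. Of 9 sites, 3 were at annotated starts and 6 inside the gene, all in introns. None of the intronic sites was present in more than 2 libraries. The strongest promoter site is 1511 bp wide and also covers starts of the antisense gene ZEB1-AS1, so the promoters of both genes cannot be told apart. Pileups were 69, 86 and 97 in DMSO and 69, 86 and 16 in SNDX-5613. The percentiles were 42.2, 40.7 and 49.4 in DMSO and 34.0, 45.3 and 49.6 in SNDX-5613, and the groups overlapped. The difference was -1.15 points (exact permutation p = 1.0), the smallest of the 5 promoters tested.

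ZEB2, on the minus strand at chr2:144364364-144521057, has 46 annotated starts, and 6 of its 22 sites fell within 1 kb of one. The strongest of these 6 lies 803 bp inside the 5′ end of the gene, in an exon of the antisense gene ZEB2-AS1. Its pileups were 71, 73 and 77 in DMSO and 57, 82 and 19 in SNDX-5613. The percentiles were 37.1, 23.3 and 28.7 in DMSO and 19.4, 40.7 and 60.6 in SNDX-5613. The SNDX-5613 libraries spanned the whole DMSO range, with a SD of 20.6 against 6.93 points. The difference of 10.5 points (exact permutation p = 0.6) was 0.587 without the shallow library, on the wider set of sites that this opens. At the strongest other site of the locus, the promoter of the neighbour GTDC1, the percentiles were 62.7, 73.0 and 74.7 in DMSO and 76.0, 74.1 and 72.0 in SNDX-5613, again overlapping. When sites were ranked by fold enrichment, the GTDC1 groups stood apart (difference 17.5 points, exact permutation p = 0.1). A site in the ZEB2 intron, 116861 bp inside the gene and 1177 bp from an internal start, had higher percentiles than the 5′ promoter in all 6 libraries, from 50.8 to 75.5. A weaker promoter site 3368 bp inside the gene was lower in SNDX-5613 among the 5 deeper libraries, with pileups of 33, 45 and 36 in DMSO and 28 and 30 in SNDX-5613.

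TWIST1 was the member whose promoter stood apart between the groups. The gene is annotated on the minus strand at chr7:19020991-19117636, but its canonical transcript spans only 2169 bp at the 5′ end (chr7:19115468-19117636), and the rest belongs to a longer transcript. The promoter site is 1769 bp wide, with the strongest summit 16 bp past the start in the 5′ untranslated region. Pileups were 77, 93 and 93 in DMSO and 66, 64 and 12 in SNDX-5613. Relative to each library's median over the sites with a peak in every library, they were 1.31, 1.18 and 1.24 in DMSO and 0.943, 0.877 and 1.00 in SNDX-5613. The percentiles were 50.3, 44.7 and 48.6 in DMSO and 32.2, 26.8 and 35.2 in SNDX-5613. All SNDX-5613 libraries were below all DMSO libraries, by at least 9.45 points.

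The TWIST1 means were 47.9 ± 2.90 and 31.4 ± 4.27 (SD, n = 3), a difference of -16.5 points (exact permutation p = 0.1, the smallest this design allows; Benjamini-Hochberg adjusted over the 5 promoters, 0.5). Of the strongest promoter sites of 12812 protein-coding genes, 7.46% were called lower and 7.16% higher by the same rule. Without the shallow library the difference was -14.5, on the wider set of sites that this opens. When sites were ranked by fold enrichment in place of −log10 p, it was -4.96 and the groups overlapped (exact permutation p = 0.5). The pileup of 12 in the shallow library has an exact 95% Poisson interval of 6.20 to 21.0, which covers counting error only. In that library the strongest summit of the site was 227 bp past the start, against positions from 26 bp upstream to 16 bp past the start in the other libraries.

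**Figure D2:**
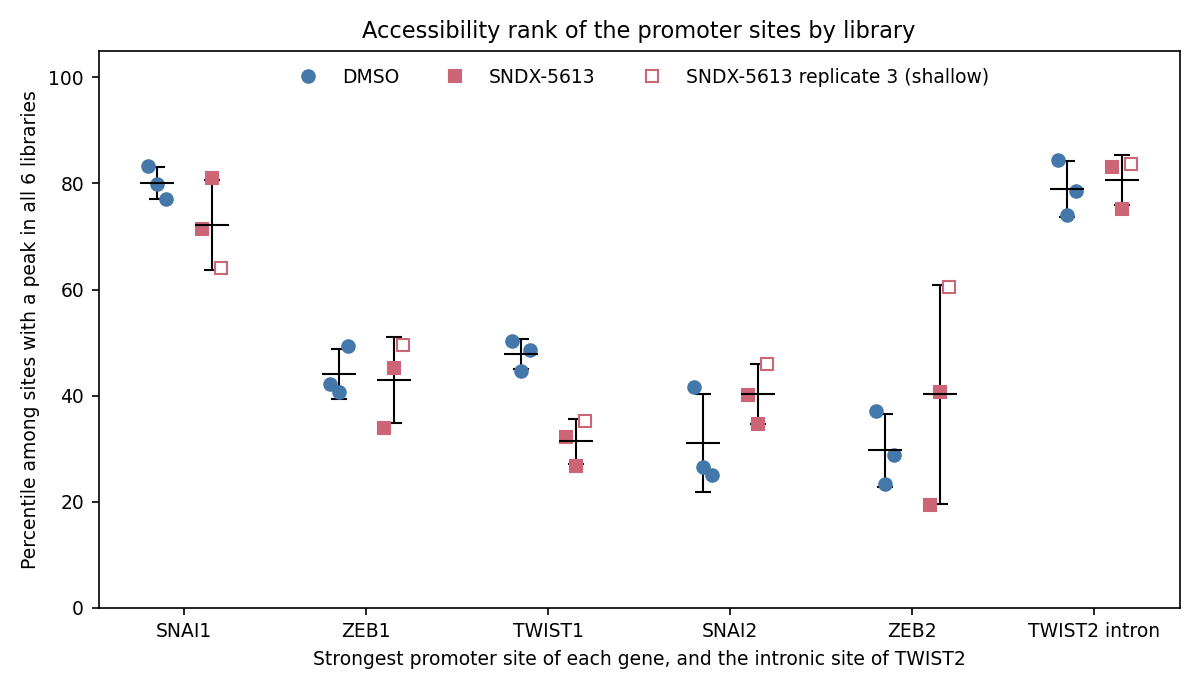
Percentile (y axis) of the strongest promoter site of 5 members and of the intronic TWIST2 site in each library, with bars for the group mean ± SD (n = 3) and an open square for the shallow SNDX-5613 replicate 3. TWIST1 is the promoter at which the groups do not overlap, with 44.7 to 50.3 in DMSO and 26.8 to 35.2 in SNDX-5613.

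The distal site of TWIST1, 106266 bp downstream of its 5′ end and intergenic, was the other TWIST1 site called lower. It was weak, with pileups of 13, 20 and 19 in DMSO and 12, 9 and 3 in SNDX-5613. The percentiles were 4.77, 6.17 and 5.32 in DMSO and 1.53, 0.192 and 3.29 in SNDX-5613 (difference -3.75 points, exact permutation p = 0.1). Without the shallow library the difference was -12.3 on the wider set of sites that this opens. With percentiles taken within each library's own list the groups overlapped (exact permutation p = 0.2), and the site was not in the compared set with the q filter, with equal list lengths or at 50% cover. The strongest other TWIST1 site in all 6 libraries, 65654 bp inside the long transcript, had percentiles of 23.6, 24.5 and 14.1 in DMSO and 8.90, 19.1 and 10.7 in SNDX-5613, with the groups overlapping (difference -7.84 points, exact permutation p = 0.2). The groups at that site stood apart without DMSO replicate 3 (-11.2) and without SNDX-5613 replicate 2 (-11.1), and all 3 same-numbered pairs were lower in SNDX-5613. The third TWIST1 result concerned presence. A site 16948 bp inside the long transcript, whose printed sequence holds an AP-1 match and 4 E-boxes, had a peak in all 3 DMSO libraries with pileups of 8, 8 and 11 and in no SNDX-5613 library.

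Among the 6 loci, TWIST1 was also the one with fewer sites in every SNDX-5613 library than in any DMSO library. Peaks were called at 10, 15 and 10 of its 17 sites in DMSO and at 6, 9 and 3 in SNDX-5613. Genome-wide, the lists held 88026, 113675 and 96392 regions in DMSO and 107347, 96910 and 40568 in SNDX-5613. Of the 17 sites, 8 had a peak in at least 1 DMSO library and in no SNDX-5613 library, a pattern found at 23.8% of all sites, and 0 had the opposite pattern, found at 19.7%. Of the 2 consensus peak sets, the DMSO set alone overlapped 5 TWIST1 sites (6.16% of all sites) and the SNDX-5613 set alone 0 (5.85%). When each list was limited to its 40568 strongest regions, 4 TWIST1 sites remained, with peaks at 3, 3 and 1 in DMSO and 1, 2 and 3 in SNDX-5613, which overlap. The counts of the other loci overlapped between the groups. How often such counts stand apart at loci elsewhere in the genome was not examined.

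TWIST2, on the plus strand at chr2:238848032-238910534, had 33 sites and little signal at its start. A peak at the start itself was called in SNDX-5613 replicate 1 only, and a site 1347 bp inside the gene in the 5 deeper libraries, with pileups of 7, 10 and 13 in DMSO and 12 and 22 in SNDX-5613. No promoter site was present in all 6 libraries, so no promoter difference was tested. In contrast, an intronic site 16377 bp past the 5′ end ranked near the SNAI1 promoter. Its pileups were 130, 139 and 146 in DMSO and 151, 133 and 26 in SNDX-5613. The percentiles were 84.5, 74.0 and 78.5 in DMSO and 83.0, 75.2 and 83.6 in SNDX-5613, and the groups overlapped (means 79.0 ± 5.24 and 80.6 ± 4.69, SD, n = 3; difference 1.65 points, exact permutation p = 0.8). The sequence around its summit held 2 AP-1 matches. Of the 33 TWIST2 sites, 18 were called in a single library, a larger share than the 36.2% of all sites. In neither consensus set lay 21 of the 33, among 37 such sites of the 107 members. The share over all sites is not given for this second pattern, so it cannot be read as particular to TWIST2.

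**Figure D3:**
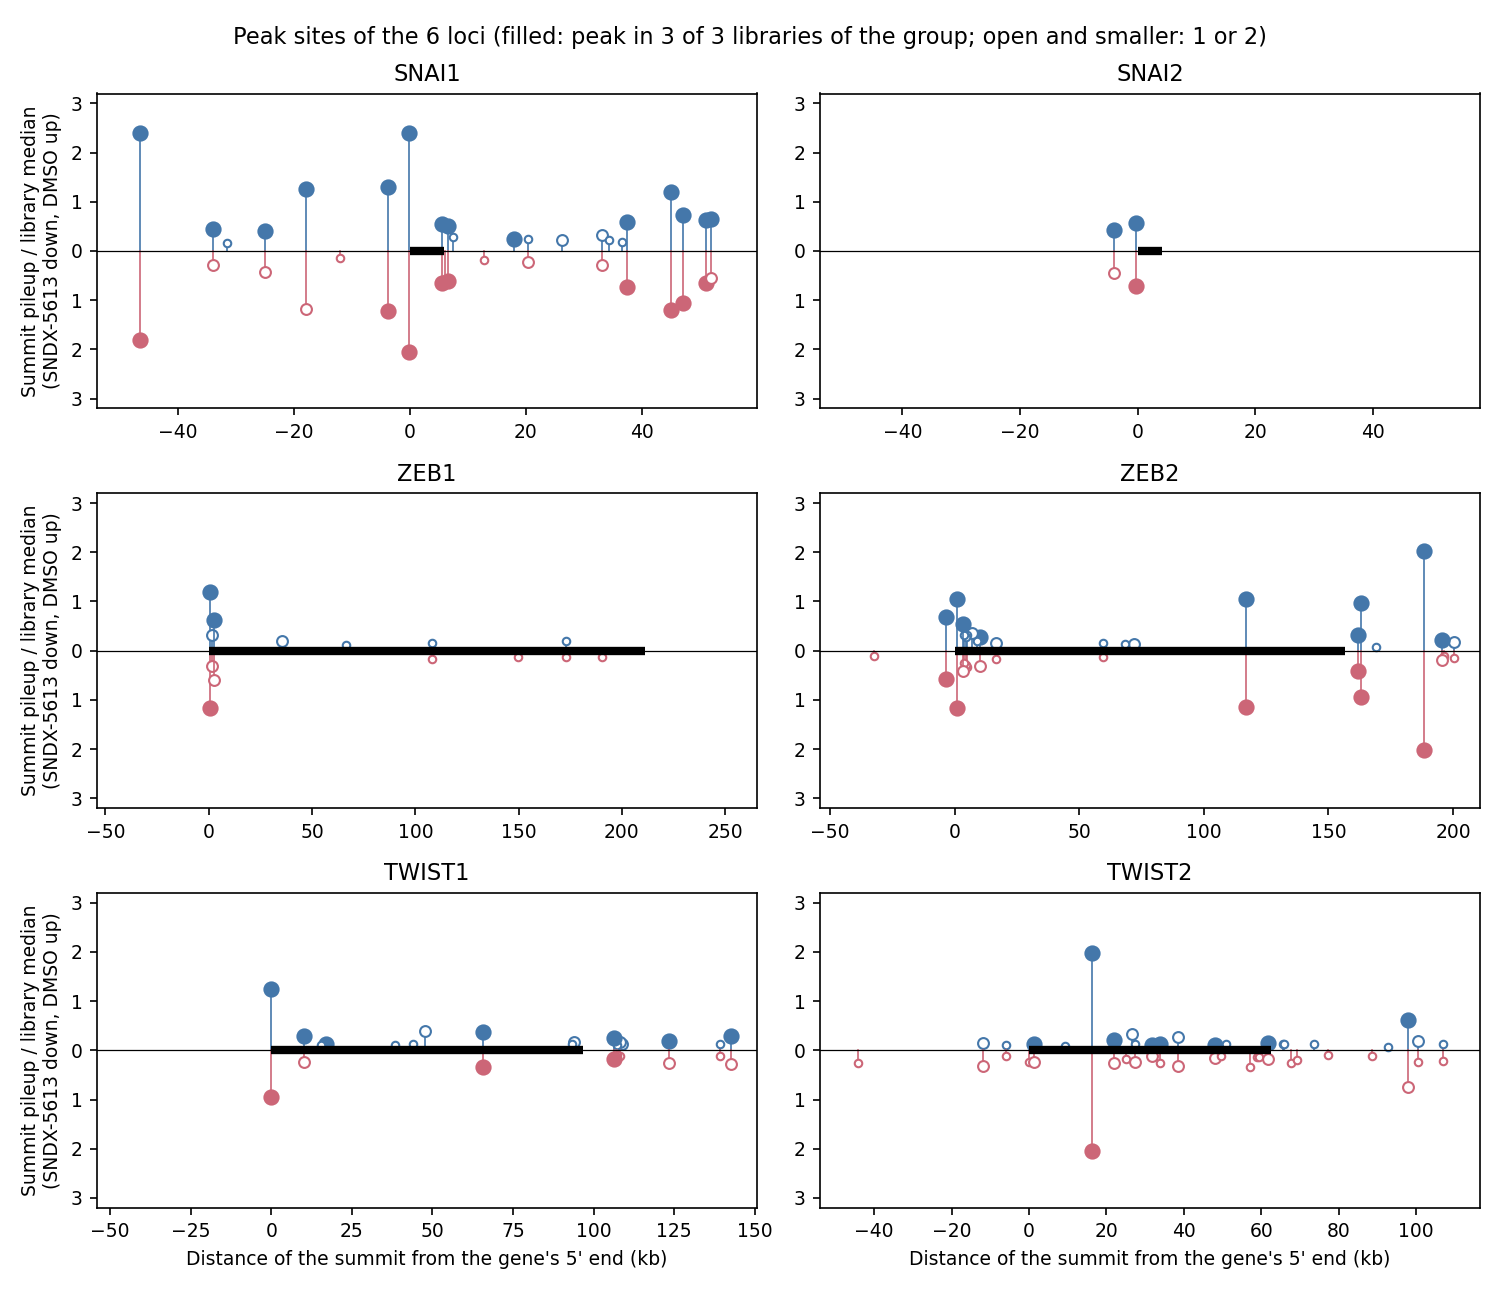
Sites of each locus by distance of the summit from the gene's 5′ end (x axis, kb, in the direction of transcription, gene body as the thick bar), with the mean summit pileup over the library median upward for DMSO and downward for SNDX-5613, taken over libraries with a peak. Large filled points have a peak in 3 of 3 libraries, and open points in 1 or 2. The ZEB1 body is almost empty, TWIST2 has its strong site inside the gene, and SNAI1 has strong sites on both sides.

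By mean percentile the order of the promoters in DMSO was SNAI1 (80.1), TWIST1 (47.9), ZEB1 (44.1), SNAI2 (31.1) and ZEB2 (29.7). In SNDX-5613 it was SNAI1 (72.2), ZEB1 (42.9), SNAI2 (40.3), ZEB2 (40.2) and TWIST1 (31.4). SNAI1 was above each of the others in 6 of 6 libraries, and its range over them, 64.1 to 83.2, did not meet theirs. After SNAI1, the ranges of neighbours in the order overlapped in each group. The genes with the promoter pattern nearest to each member, by Euclidean distance over the 6 percentiles among protein-coding genes, were CLASP2 (5.32 points) and AAK1 (6.32) for SNAI1, NUDT14 (4.84) and BICRAL (5.57) for ZEB1, and DENND1B (6.33) and SLC29A3 (7.54) for SNAI2. The nearest patterns were more distant for TWIST1, with VAV2 (10.3) and SLC35D2 (10.9), and for ZEB2, with FIGN (12.6) and TNS1 (12.6).

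The 5 deeper libraries allowed 39 member sites to be compared, with percentiles taken among 59986 sites. With 2 SNDX-5613 libraries against 3 DMSO libraries, 4 sites were higher (10.3%, with 14.3% of all sites called higher) and 7 were lower (17.9%, with 14.4% called lower). The exact permutation test cannot give a p below 0.2 here. By locus, 1 higher and 3 lower sites belonged to SNAI1, 1 lower to ZEB2, 1 higher and 3 lower to TWIST1 and 2 higher to TWIST2. The 4 sites called in the 6-library set were called in the same direction. That outcome was nearly fixed in advance, because the same libraries were compared. One further site, chosen after its values were seen, lies in the intron of RNF114, 34020 bp upstream of SNAI1, with percentiles of 45.1, 43.6 and 38.0 in DMSO and 25.1 and 18.7 in SNDX-5613. The median difference was -0.752 points over the member sites and -0.133 over all sites.

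Sites seen in one group only were few. The pattern of peaks in all 3 DMSO and no SNDX-5613 library was found at 2 of the 107 member sites, described above for SNAI1 and TWIST1, and at 1.18% of all sites. The opposite pattern was found at 0 member sites and at 0.147% of all sites. Without the shallow library, the pattern of peaks in all 3 DMSO and neither SNDX-5613 library was found at 3 member sites and 1.21% of all sites, and the opposite pattern at 0 member sites and 2.39% of all sites. The number of member sites with a peak was 55, 76 and 58 in DMSO (63.0 ± 11.4, SD, n = 3) and 61, 57 and 26 in SNDX-5613 (48.0 ± 19.2, SD, n = 3), and the groups overlapped (exact permutation p = 0.5).

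Other genes of the EMT network were read in the same way, over their own strongest promoter sites. Of 12 further EMT factors, 7 had a promoter site in all 6 libraries, of which 3 were higher in SNDX-5613 and 1 was lower, beside the 7.16% and 7.46% of protein-coding genes given for TWIST1. FOXC1, a forkhead factor, had percentiles of 45.5, 40.4 and 49.7 in DMSO and 75.3, 56.2 and 67.5 in SNDX-5613. SOX4, an HMG-box factor downstream of TGF-β, had 38.4, 52.5 and 53.1 in DMSO and 59.5, 57.1 and 87.6 in SNDX-5613. SOX9, a related factor of progenitor and duct cells, had 72.7, 79.2 and 70.0 in DMSO and 79.6, 88.7 and 81.8 in SNDX-5613, its lowest SNDX-5613 value 0.350 points above the highest DMSO value. FOXC2 was the lower one, with 65.8, 58.0 and 53.2 in DMSO and 52.3, 46.3 and 52.5 in SNDX-5613. The median difference of these 7 was 4.13 points. GSC and TBXT had no promoter peak in any library.

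Of 11 factors that keep cells epithelial, 5 had a promoter site in all 6 libraries and 0 stood apart, with a median difference of 0.610 points. GRHL2, ESRP1 and MIR200CHG, the host gene of miR-200c and miR-141, had no promoter peak in any library. ESRP2, a splicing regulator, was among the most accessible promoters in both groups (96.6 ± 0.431 and 96.0 ± 1.67, SD, n = 3), as was GRHL1 (93.7 ± 1.71 and 90.8 ± 3.62). Of the EMT targets, the groups overlapped at CDH1 (40.7 ± 8.47 and 36.4 ± 24.2), at CDH2 (36.1 ± 6.32 and 31.9 ± 7.09) and at VIM (70.7 ± 4.17 and 71.6 ± 4.25). The CDH1 promoter ranked at 51.0 and 49.7 in the deeper SNDX-5613 libraries and at 8.45 in the shallow one.

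**Figure D4:**
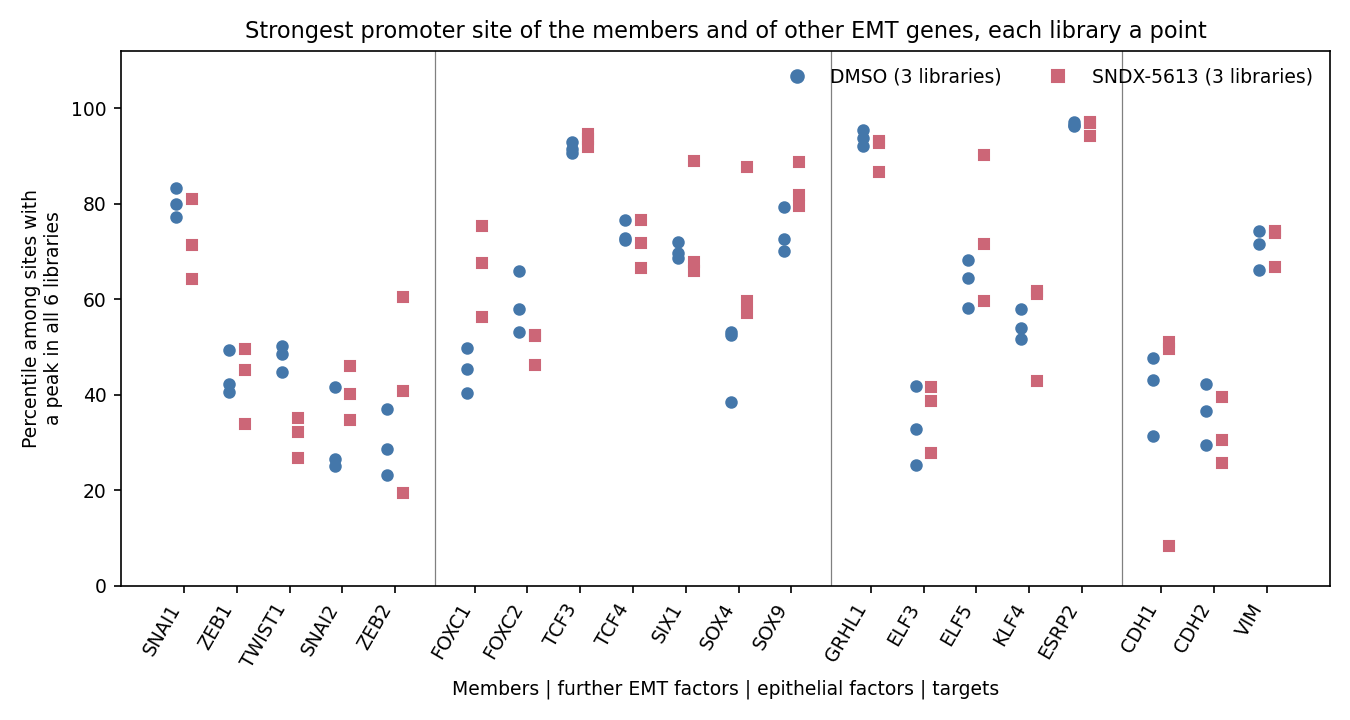
Percentile (y axis) of the strongest promoter site of 5 members and of 15 other EMT genes with a promoter site in all 6 libraries, each library a point (circles DMSO, squares SNDX-5613). The groups do not overlap at TWIST1, FOXC1, FOXC2, SOX4 and SOX9.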

How the data were processed

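ATAC-seq of HLF cells gave 1 peak list for each of 6 libraries (3 DMSO, 3 SNDX-5613) and 1 consensus set for each group. Per the labels and the methods of the study, nuclei were prepared by Omni-ATAC and reads were processed with Trim Galore 0.6.7, Bowtie2 2.3.4.1, SAMtools, Picard 2.20.0, deepTools 3.5.4 and MACS2, and replicates were combined with RMSPC. Duplicates were marked with Picard. A shift for the Tn5 cut and the removal of marked duplicates were not stated. A shift of a few bases would move summits but hardly the overlaps, while duplicates, if kept, would raise pileups.

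The deposited lists give, for each summit, the authors' fold enrichment (a ratio of pileup to local background), the authors' −log10 p-value, the authors' −log10 q-value and the summit position. Of the deposited consensus sets, which also hold a combined −log10 p, the regions alone were used. Read counts were not used here, so the count model of the study was not fitted.

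Regions on chromosomes 1 to 22, X and Y were joined into sites, with the highest −log10 p of each library kept. Coordinates are hg38 with GENCODE release 44, and 0 peaks passed a chromosome end. A promoter site has a summit within 1 kb of any annotated start. Whole pileups were solved from fold and −log10 p within 0.01 for 100% of summits (4.60% to 7.15% when p was shuffled). Percentiles, non-overlap calls and exact permutation tests over libraries were computed with Python 3.11.15, pandas 2.3.3 and SciPy 1.17.1, and tested on simulated data. The precision is set by the 3 libraries per group. The members, gene lists and tests were chosen with earlier results of these data known. Named sites are the strongest promoter and other site of each locus, those whose groups did not overlap and those present in 1 group only, with some others named after their values were seen. Alternatives were other ranking measures, a q filter, equal list lengths, 50% cover, a replicate block and leaving out each library. A marker gene and the sequence of 1 site are not reported here.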

Additional observations from a re-analysis of the deposited data

How the results depend on the processing

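The calls rest on few libraries, and a difference below the spread of 3 libraries was not detectable. Against 1 site called higher and 3 called lower, ranking by fold enrichment gave 2 higher, equal list lengths gave 0 higher, percentiles within each library's own list gave 0 higher and a median difference of -8.26 points, and 50% cover gave 0 higher and 1 lower. With percentiles within each library's own list, 0.997% of all 33405 sites were called higher and 7.68% lower. Their median difference was -5.03 points, so the negative shift by that measure was not confined to the member sites. Leaving out each library gave 1 to 4 member sites higher and 3 to 7 lower. Over all sites these omissions called 12.3% to 14.5% higher and 12.2% to 14.4% lower. Groups of 2 against 3 libraries overlap less readily by construction, and leaving out SNDX-5613 replicate 3 adds sites. Sites present in DMSO only numbered 1 with a q filter of −log10 q at least 3, 1 with equal list lengths, 3 at 50% cover and 2 to 6 without 1 library, against 2. For most of these settings the share of all sites present in DMSO only is not given. These changes in presence therefore cannot be read as particular to the members. Fewer libraries also make the pattern easier to meet at any site. The difference in member sites per library was 0.667 in place of -15.0 with equal list lengths.

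The GTDC1 promoter was called higher when ranked by fold (17.5). Within each own list the distal TWIST1 site (-22.2) and the SNAI1 3′ flank site (8.16) lost their calls. The TWIST1 promoter lost its call when ranked by fold (-4.96) and had no value at 50% cover, and its groups stood apart in the other 11 alternatives. Those include the replicate block and each omission of a library, which could hardly undo a full separation of the groups. Ranking by pileup, the q filter, equal list lengths and percentiles within each own list could have removed the call and did not. The ZEB1 promoter changed sign when ranked by fold (5.66) and ranged from -2.96 to 3.33 without 1 library. Percentiles within each own list turned SNAI2 (-2.43), ZEB2 (-0.588), the GTDC1 promoter (-2.79) and the TWIST2 intronic site (-2.10). By that measure the median difference over all sites was -5.03, below each of these values. Ranking by fold gave -0.817 at the TWIST2 site, and leaving out libraries gave -0.834 to 4.33. Without 1 library the ranges were -12.2 to -2.19 for SNAI1, 6.16 to 14.3 for SNAI2 and 0.587 to 20.9 for ZEB2, and a single omission set the groups apart at each (without SNDX-5613 replicate 2, DMSO replicate 1 and SNDX-5613 replicate 1, respectively). The cause of these changes was not tested.

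With a replicate block, 1 of 21 sites was higher and 4 were lower in all 3 same-numbered pairs. Of all sites, 16.2% were called higher and 16.5% lower by the block. The exact sign-flip permutation p for the TWIST1 promoter was 0.25, the smallest possible. Deviations of same-numbered libraries correlated by 0.0001 to 0.0313, so the numbers were not treated as pairs. The methods of the study describe each replicate as a dish divided between treatments, without saying that equal numbers mark the same dish. Of the named sites, the block added the TWIST1 site 65654 bp inside the long transcript to those called lower (-7.84, exact sign-flip permutation p = 0.25) and changed no other call.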
